A study of Mus musculus with 12 samples.

Results

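The genes described here encode the subunits of voltage-gated sodium and calcium channels. They were chosen by symbol: the sodium channel α subunits and β subunits (Scn followed by a number and the letter a or b), the calcium channel α1 and α2δ subunits (Cacna1 and Cacna2), the β subunits (Cacnb) and the γ subunits (Cacng). Of the 29641 genes listed in either organ, 37 met this rule, and all 37 were listed in both organs. They comprised 10 sodium channel α, 4 sodium channel β, 10 calcium channel α1, 4 α2δ, 4 calcium channel β and 5 γ genes.

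The libraries came from newborn mice at P0-P1, which carried Cre at both alleles or at 1 allele of Gfi1, a gene for a transcriptional repressor needed by hair cells. Mutants were Gfi1Cre/Cre;RiboTagHA/HA and heterozygotes were Gfi1Cre/+;RiboTagHA/HA, with 3 libraries of each genotype from the cochlea and 3 of each from the vestibule, 12 in all. Both genotypes carried 2 RiboTagHA alleles, so that Cre switched on an HA-tagged ribosomal protein wherever Gfi1Cre had been active, and ribosome-bound RNA was pulled down with an antibody to HA. The material is described as enriched for hair cells, which turn sound and head movement into nerve signals, and its triplicates as independent and biological. The dose of Cre differed with genotype, and no animal with unmodified Gfi1 alleles was part of the comparison. Cochlear libraries were made with a NuGEN Ovation Ultralow kit and vestibular libraries with a NEBNext Ultra Directional kit, so organ and kit cannot be told apart, and levels were not compared between organs.

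The pore of each of these channels is a single large protein, the α subunit of a sodium channel or the α1 subunit of a calcium channel. Smaller partners, the sodium channel β subunits and the calcium channel α2δ and β subunits, set how many channels reach the membrane and how they gate. In hair cells, calcium entering through channels built around Cacna1d (CaV1.3) triggers glutamate release onto the afferent neuron, and immature hair cells of rodents also carry sodium currents and fire calcium action potentials. Sodium channels are the main spike generators of the ganglion neurons that contact hair cells.

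Values are CPM, the reads of a gene scaled to a common library total. Cochlear libraries had totals of 7531518 to 9363796 reads, and vestibular libraries had 18951026 to 29370267. The CPM of 1 read was 0.107 to 0.133 for cochlear and 0.0340 to 0.0528 for vestibular libraries. Gfi1 itself (chromosome 5, 107716657 to 107726036, minus strand) had 75.1, 64.3 and 69.1 CPM in mutant cochleae, against 165, 106 and 126 CPM in heterozygous cochleae, and 236, 198 and 208 CPM in mutant vestibules, against 534, 450 and 483 CPM in heterozygous vestibules. Every mutant library of both organs was lower than every heterozygous one, with log2 changes of -0.90 in the cochlea (limma adjusted p = 0.00355) and -1.19 in the vestibule (limma adjusted p = 0.00234). The labels do not state which exons the Cre allele keeps, so the remaining reads say nothing about functional Gfi1. Both replicate 3 libraries stood apart from the other 4 in the cochlea, on the second principal component (24.0% of the variance), and both replicate 1 libraries did so in the vestibule, on the first (45.5%). Genotype separated on the first component in the cochlea (40.6%) and on the second in the vestibule (34.9%). Without both replicate 3 libraries the count of channel genes called in the cochlea was again 6, beside 3.94% of all genes, and without both replicate 1 libraries the count in the vestibule was again 5, beside 5.53% of all genes.

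The pull-down held transcripts of genes listed as markers of hair cells and of ganglion neurons, and levels of some of these differed with genotype. A list of 9 hair cell markers (Myo7a, Pou4f3, Myo6, Otof, Slc17a8, Tmc1, Lhx3, Cib2 and Lhfpl5) summed to 2863 to 3411 CPM in mutant cochleae, against 4057 to 4862 CPM in heterozygous cochleae, and 4 of the 9 fell. Of all genes tested in the cochlea, 2.52% were called lower. In the vestibule the same list summed to 9815 to 10465 CPM in mutants and 8822 to 9935 CPM in heterozygotes, and limma called none of the 9 (2 at an unadjusted p under 0.05; edgeR called 0). With the replicate number as a block, limma called 4 of the 9 higher in mutant vestibules, beside 10.5% of all genes called higher in that fit, and 7 of the 9 lower in mutant cochleae, beside 4.31% called lower. A list of 10 ganglion neuron markers, Nefm and Snap25 among them, summed to 2001 to 2146 CPM in mutant cochleae, against 1276 to 1415 CPM in heterozygous cochleae, and 5 of 10 rose. Of all genes tested in the cochlea, 1.9% were called higher. In the vestibule this list summed to 2420 to 2531 CPM in mutants and 1464 to 1704 CPM in heterozygotes. There 4 of the 9 tested rose, beside 2.41% of all genes called higher. With the block, 7 of the 10 were called higher in mutant cochleae, beside 4.21% of all genes called higher. Of the 9 tested in the vestibule, 6 were called higher in mutants with the block and 1 lower, beside 10.5% and 12.8% of all genes. In the vestibule 7 markers of Schwann and satellite glia summed to 189 to 224 CPM in mutants and 329 to 362 CPM in heterozygotes, and 6 mesenchyme markers to 1073 to 1480 CPM in mutants and 1976 to 2566 CPM in heterozygotes. Col1a1 and Col3a1 of the mesenchyme list fell, beside 1.09% of all genes called lower. In the cochlea both lists overlapped between genotypes. With the block, 6 of the 7 glial and 6 of the 6 mesenchyme markers were called lower in mutant vestibules, beside 12.8% of all genes called lower, while edgeR called 0 and 1 of them there. The sums of 7 supporting cell and of 7 macrophage markers overlapped between genotypes in both organs, and limma without the block called none of them. With the block, 2 supporting cell markers were called higher and 2 lower in mutant vestibules, and 3 macrophage markers lower. Beside these, 10.5% of all genes were called higher and 12.8% lower, and in the cochlea the block called 0 of either list. No marker of these lists was at 0 in all libraries, and the part of these cells in the channel gene changes was not tested. In such bulk samples, fewer cells of a type and less RNA per cell cannot be told apart. Nor do the marker lists show which cells of the pull-down held these transcripts.

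A gene was tested in an organ if it reached 1 CPM in at least 3 of its 6 libraries, and calls were made by limma's moderated test with Benjamini-Hochberg adjustment over all genes of the organ, at a threshold of 0.05. A log2 change is the mutant mean of log2(CPM + 1) minus the heterozygote mean, and it comes out too small for genes with few reads. In the cochlea 31 of the 37 channel genes were tested and 6 were called (19.4%), beside 4.41% of all 17985 genes tested. Cacna1b, Cacna2d1 and Scn9a were higher in mutants, where 1.9% of all genes were called higher, and Cacna1d, Cacng2 and Scn3b were lower, where 2.52% were called lower. In the vestibule 29 were tested and 5 were called (17.2%), beside 3.5% of all 15595 genes tested. Cacna2d1, Cacnb2, Scn11a and Scn9a were higher in mutants (2.41% of all genes) and Scn3b was lower (1.09%). The median log2 change over the tested channel genes was 0.17 in the cochlea, beside 0.05 over all genes, and -0.02 in the vestibule, beside -0.06 over all genes.

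The replicate numbers were taken to pair the libraries across genotypes, from correlations in these same data. With the number as a block the vestibular count was 13 of 29 (44.8%), beside 23.3% of all genes. The genes added were Cacna1a, Cacna1b, Cacnb3, Scn3a and Scn8a among the higher and Cacna1c, Cacna1e and Cacna1g among the lower. These made 9 higher (10.5% of all genes) and 4 lower (12.8%). In the cochlea the blocked count was 8 of 31 (25.8%), beside 8.52% of all genes: 4 were higher (4.21% of all genes), with Cacnb3 added, and 4 were lower (4.31%), with Scn11a added. With edgeR on recovered reads, an alternative added after seeing the data, the same 6 genes were called in the cochlea, beside 4.52% of all genes. In the vestibule edgeR called 6, beside 3.36% of all genes, and these were 1 lower and 5 higher (2.51% of all genes), with Cacna1b added.

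**Figure D1:**
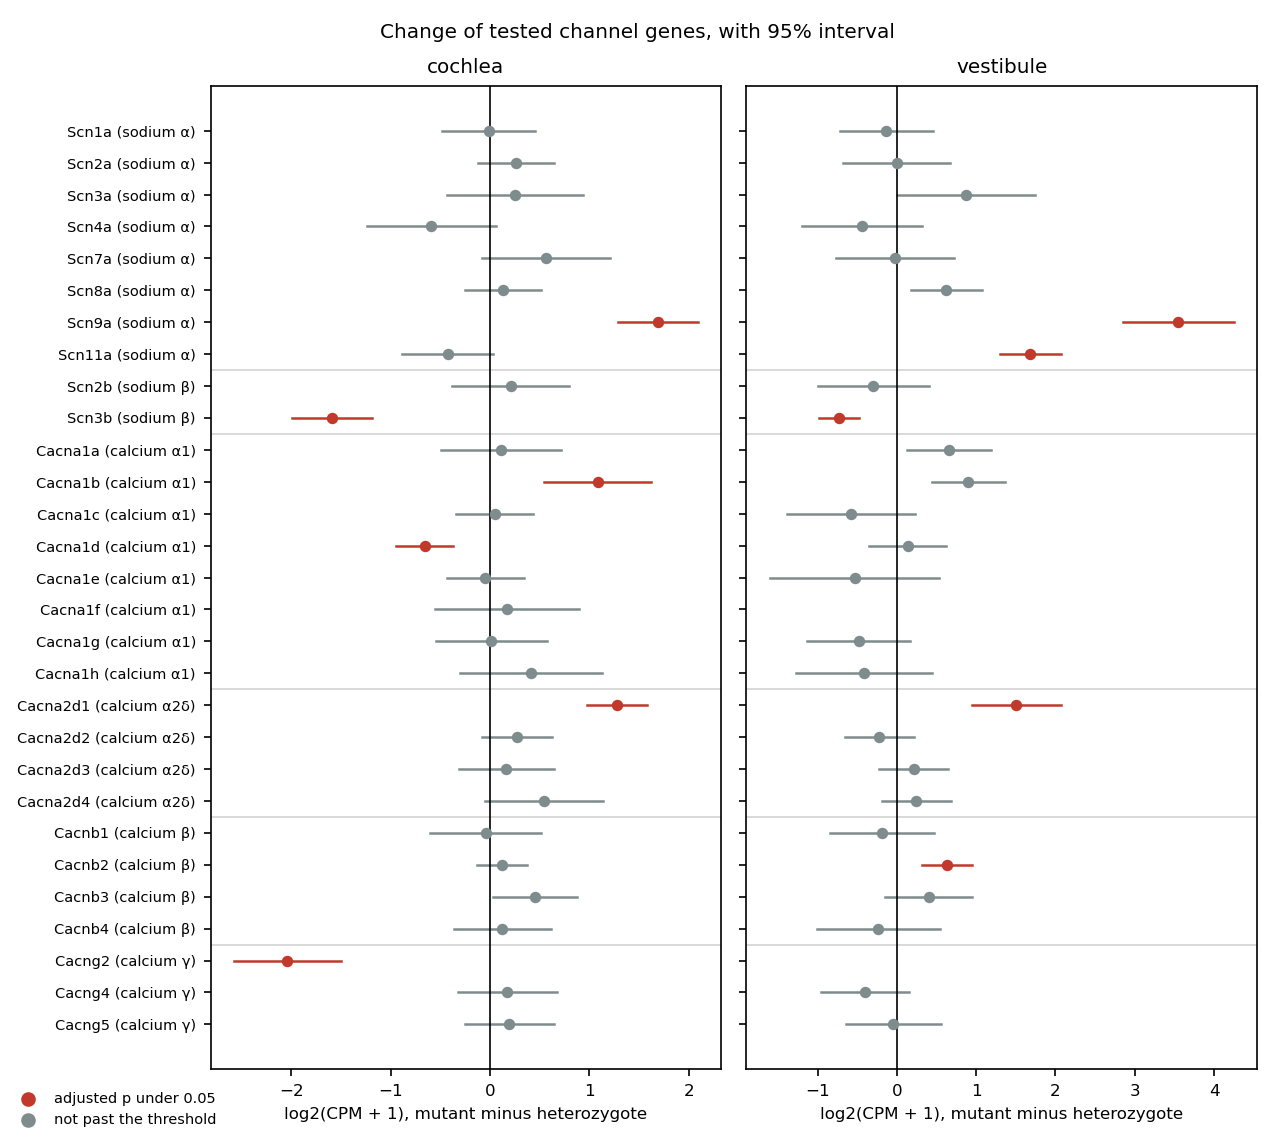
Log2 change (mutant minus heterozygote, log2(CPM + 1) scale) of tested channel genes in the cochlea (left, 29 of 31 tested) and the vestibule (right, 27 of 29 tested), grouped by subunit type, with limma's 95% interval as a bar. Red marks an adjusted p under 0.05: 6 genes in the cochlea and 5 in the vestibule, with Scn9a, Scn3b and Cacna2d1 red in both.

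The promoter windows of the 3 genes with the largest rises in the vestibule are shown, because GFI1 is known to bind DNA at AATC and its gene was the one altered. They are RefSeq windows on GRCm38.p6, from 250 bases before to 50 bases after a transcript start, read on the strand of the gene. Capitals mark AATC on either strand (GATT is its reverse complement), the longer form AATCAC, which holds AATC, and CAGCTG, a palindromic E box bound by neurogenic and hair cell basic helix-loop-helix factors. The windows lie at chr2:66634913-66635212 (minus strand) for Scn9a, chr9:119825407-119825706 (minus strand) for Scn11a and chr5:15934441-15934740 (plus strand) for Cacna2d1.
Scn9a: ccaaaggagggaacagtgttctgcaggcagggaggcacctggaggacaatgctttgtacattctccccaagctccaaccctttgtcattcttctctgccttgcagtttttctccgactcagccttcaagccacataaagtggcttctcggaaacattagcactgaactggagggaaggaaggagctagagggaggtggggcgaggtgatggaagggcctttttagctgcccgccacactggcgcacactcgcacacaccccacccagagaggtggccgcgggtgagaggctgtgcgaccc
Scn11a: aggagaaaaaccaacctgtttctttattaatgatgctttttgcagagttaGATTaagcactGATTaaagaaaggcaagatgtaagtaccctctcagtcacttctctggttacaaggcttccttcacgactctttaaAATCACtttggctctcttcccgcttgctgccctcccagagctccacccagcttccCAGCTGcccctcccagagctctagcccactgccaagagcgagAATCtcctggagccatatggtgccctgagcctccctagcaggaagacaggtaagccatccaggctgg
Cacna2d1: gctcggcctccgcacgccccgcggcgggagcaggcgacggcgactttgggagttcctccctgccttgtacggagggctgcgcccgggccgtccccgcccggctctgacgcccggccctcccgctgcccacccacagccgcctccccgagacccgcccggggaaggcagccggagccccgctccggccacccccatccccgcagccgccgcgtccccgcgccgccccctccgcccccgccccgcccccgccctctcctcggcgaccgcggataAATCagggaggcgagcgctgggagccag

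The Scn9a window held none of these letters, the Scn11a window held 4 AATC, 1 of them within AATCAC, and 1 CAGCTG, and the Cacna2d1 window held 1 AATC. The GC content of these windows was 57.3% for Scn9a, 50.3% for Scn11a and 80.0% for Cacna2d1. RefSeq windows were matched by symbol for 27 of the 37 channel genes, 38 windows in all. AATC occurred in 25 of the 38 (65.8%), beside 73.1% of all 32851 windows in the table, and AATCAC in 4 of the 38 (10.5%), beside 10.4%. Those 4 windows belonged to Scn8a, Scn10a, Scn11a and Cacng3. CAGCTG occurred in 12 of the 38 (31.6%), beside 16.3% of all windows. These are matches of letters, not measured binding.

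Among the sodium channel α subunits, Scn9a and Scn11a carried the changes. Scn9a encodes NaV1.7, a channel of peripheral sensory neurons known for its part in pain. It lies on chromosome 2 (ENSMUSG00000075316, 66480080 to 66634962, minus strand), on the chromosome that also carries Scn1a, Scn2a, Scn3a and Scn7a, and 1.41% of its exon bases overlap Gm13629 on the opposite strand. In the cochlea Scn9a had 122, 151 and 132 CPM in mutants, against 28.8, 47.8 and 49.3 CPM in heterozygotes. The groups did not overlap, and the lowest mutant library stood above the highest heterozygous one by a wide margin. The mean was 135 ± 14.6 CPM in mutants and 42.0 ± 11.4 CPM in heterozygotes (SD, n = 3 each), 3.21-fold, and the log2 change was 1.69 (SE 0.19, limma adjusted p = 9.48e-05).

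In the vestibule Scn9a had 16.9, 26.2 and 26.7 CPM in mutants, against 0.848, 1.93 and 0.545 CPM in heterozygotes. Those heterozygous values rested on 19, 46 and 16 reads, while the mutant values rested on 321, 616 and 652 reads. The gene was thus barely detected in heterozygous vestibules, and the groups did not overlap. The mean was 23.3 ± 5.49 CPM in mutants and 1.11 ± 0.728 CPM in heterozygotes (SD, n = 3 each), 21.0-fold, and the log2 change was 3.55 (SE 0.30, 95% interval 2.85 to 4.25, limma adjusted p = 0.00081). The sum of the ganglion neuron markers, higher in mutants of both organs as given above, moved in the same direction as Scn9a. The part of these markers in this result was not tested.

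Scn11a encodes NaV1.9, a channel of nociceptors that carries a persistent current resistant to tetrodotoxin. It lies on chromosome 9 (ENSMUSG00000034115, 119753759 to 119825456, minus strand), with Scn10a beside it on the same strand. In the vestibule it had 30.7, 36.4 and 36.9 CPM in mutants, against 9.33, 9.60 and 11.3 CPM in heterozygotes. The groups did not overlap and varied little within themselves. The mean was 34.6 ± 3.44 CPM in mutants and 10.1 ± 1.09 CPM in heterozygotes (SD, n = 3 each), 3.43-fold, and the log2 change was 1.68 (SE 0.17, limma adjusted p = 0.00172). Its neighbour Scn10a, another nociceptor channel, reached no more than 0.410 CPM in mutants and 0.252 CPM in heterozygotes and was not tested.

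In the cochlea Scn11a had 66.2, 88.3 and 77.5 CPM in mutants, against 68.1, 130 and 124 CPM in heterozygotes. Heterozygous library 1 lay within the mutant range, while the other 2 heterozygous libraries lay above all mutants. The log2 change was -0.42 (SE 0.21, 95% interval -0.88 to 0.03) and did not pass the test (limma adjusted p = 0.471). With the replicate block the same change passed (limma adjusted p = 0.0244), and without heterozygous replicate 1 it was -0.72 (limma adjusted p = 0.0240).

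The change of Scn11a and of Scn9a differed between the organs. A fit of all 12 libraries tested how far the change in the cochlea lay above that in the vestibule, for 14674 genes, of which 3.14% were called. Of the 29 channel genes tested, 2 (6.90%) passed, both with a lower log2 change in the cochlea than in the vestibule (2.43% of all genes). For Scn9a this was a smaller rise, not a fall. For Scn11a the difference was -2.11 (SE 0.30, 95% interval -2.75 to -1.47, limma adjusted p = 0.000884), from changes of -0.42 in the cochlea and 1.68 in the vestibule. For Scn9a it was -1.86 (SE 0.37, limma adjusted p = 0.0110), from changes of 1.69 in the cochlea and 3.55 in the vestibule. The Scn9a difference did not pass with a pseudocount of 4 (-0.78, limma adjusted p = 0.217) or without both cochlear replicate 3 libraries (-1.71, limma adjusted p = 0.0823). With the replicate block 7 of 29 passed, beside 13.3% of all genes. These 2, Cacna1d, Cacnb2 and Scn3b had lower log2 changes in the cochlea (6.43% of all genes), and Cacna1e and Cacna1h had higher ones (6.9%). By edgeR Scn11a and Scn9a passed, both with a lower log2 change in the cochlea, beside 2.91% of all genes.

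**Figure D2:**
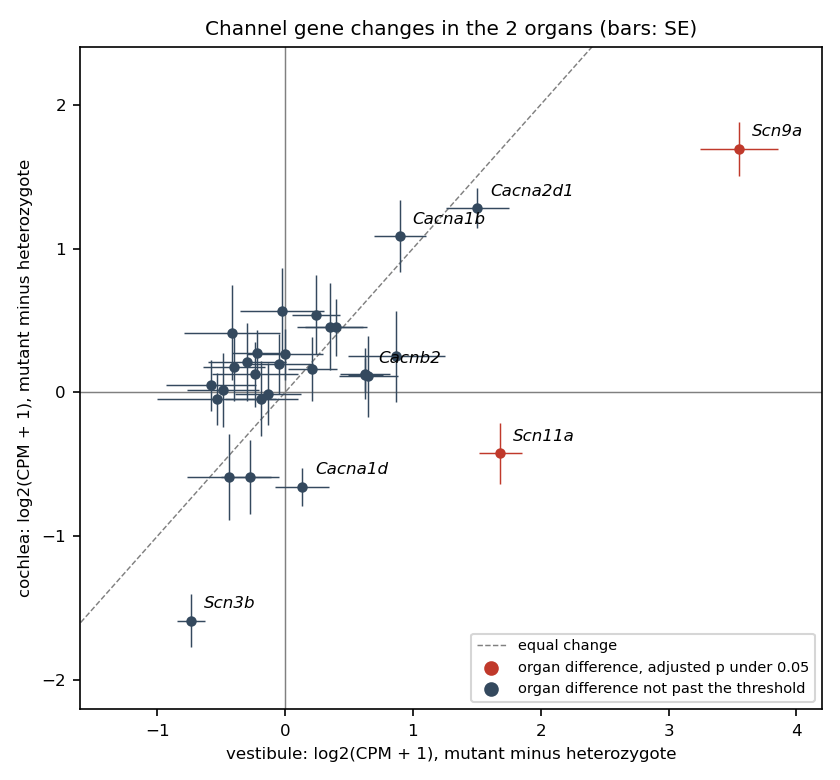
Log2 change (mutant minus heterozygote, log2(CPM + 1) scale) of the 29 channel genes tested in both organs, in the vestibule (x axis) and the cochlea (y axis), with the standard error as bars and the line of equal change dashed. Scn11a (1.68 in the vestibule, -0.42 in the cochlea) and Scn9a (3.55 and 1.69) are the genes in red, whose organ difference had an adjusted p under 0.05.

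Levels of different genes were set side by side only roughly, per kilobase of merged exons. That length takes in the exons of all annotated transcripts, and which of these were present is not known, so shares depend on it. On this scale the make-up of the α subunits differed between genotypes. In cochlear mutants Scn11a made up 40.1 ± 1.93% of the summed level of the 10 genes, against 61.5 ± 1.05% in heterozygotes, and Scn9a made up 32.5 ± 0.976% in mutants, against 11.3 ± 0.632% in heterozygotes (SD, n = 3 each). The groups did not overlap for either gene, whereas the summed level itself, 29.2 to 35.3 CPM per kb in mutants and 19.0 to 35.3 CPM per kb in heterozygotes, did overlap. In vestibular mutants Scn11a made up 51.6 ± 0.539%, against 37.4 ± 1.99% in heterozygotes, and Scn9a 16.0 ± 2.39%, against 1.92 ± 1.24% (SD, n = 3 each). There the summed level did not overlap, 10.04 to 12.1 CPM per kb in mutants and 4.17 to 4.87 CPM per kb in heterozygotes. Scn8a, the channel of nodes of Ranvier, made up 13.7 ± 1.46% in mutant vestibules and 21.6 ± 2.57% in heterozygous vestibules (SD, n = 3 each), although its own level was 24.3 ± 3.32 CPM in mutants and 15.5 ± 2.95 CPM in heterozygotes (limma adjusted p = 0.149). Shares are a description and were not tested.

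**Figure D3:**
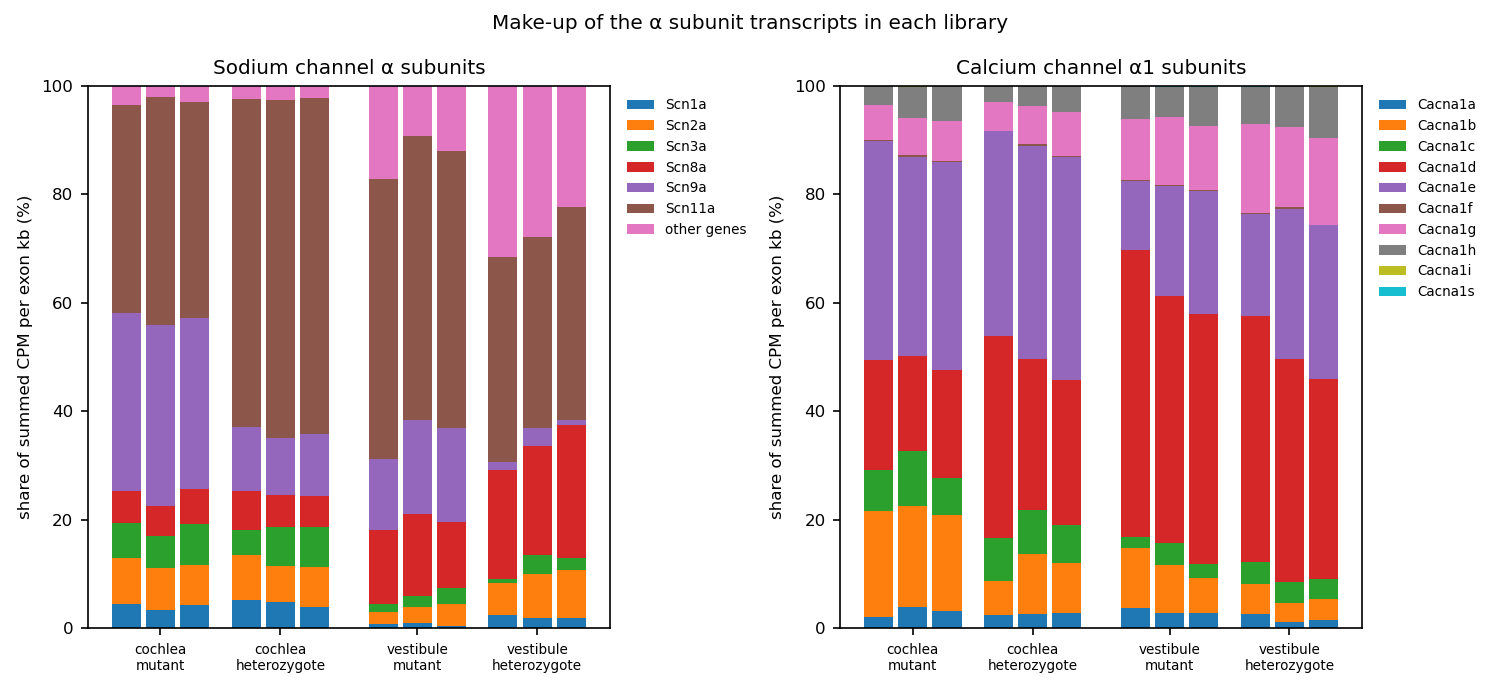
Share of each gene (%) in the summed CPM per exon kb of the sodium channel α genes (left) and the calcium channel α1 genes (right), 1 bar per library, mutants left of heterozygotes within each organ; the 4 sodium channel genes not drawn singly are summed as other genes. In the sodium channel panel the Scn9a share is 32.5% in cochlear mutants, against 11.3% in heterozygotes, and 16.0% in vestibular mutants, against 1.92% in heterozygotes. In the calcium channel panel the Cacna1b share is 18.7% in cochlear mutants, against 8.81% in heterozygotes.

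None of the other 7 tested sodium channel α genes was called by limma or by edgeR in either organ, and at an unadjusted p under 0.05 the group gained 1 gene, Scn8a in the vestibule. Scn2a, a channel of central neurons, had 32.3 ± 2.15 CPM in mutant cochleae and 27.1 ± 5.84 CPM in heterozygous cochleae (SD, n = 3 each). Scn3a, another neuronal channel with high levels before birth, had 1.69, 2.80 and 4.55 CPM in mutant vestibules, against 0.357, 1.93 and 1.33 CPM in heterozygous vestibules. Mutant library 1 lay within the heterozygous range, and the log2 change of 0.87 passed only with the replicate block (limma adjusted p = 0.0219; 0.311 without). Scn8a in the vestibule passed with the block as well (limma adjusted p = 0.00750), and its groups did not overlap.

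Among the sodium channel β subunits, Scn3b fell in both organs. It encodes β3, a subunit with 1 membrane pass and an immunoglobulin-like domain that modulates gating, and lies on chromosome 9 (ENSMUSG00000049281, 40269217 to 40291618, plus strand). In the cochlea it had 23.6, 40.9 and 24.7 CPM in mutants, against 93.2, 87.1 and 85.1 CPM in heterozygotes. Every mutant library lay below every heterozygous one. The mean was 29.7 ± 9.69 CPM in mutants and 88.5 ± 4.24 CPM in heterozygotes (SD, n = 3 each), 2.98 times lower, and the log2 change was -1.58 (SE 0.19, limma adjusted p = 0.00017).

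In the vestibule Scn3b had 83.6, 80.9 and 78.3 CPM in mutants, against 140, 132 and 134 CPM in heterozygotes. Again the groups were apart, with little spread inside each. The mean was 80.9 ± 2.66 CPM in mutants and 135 ± 4.11 CPM in heterozygotes (SD, n = 3 each), 1.67 times lower, and the log2 change was -0.73 (SE 0.11, limma adjusted p = 0.00972). This vestibular call was lost without heterozygous replicate 2 (limma adjusted p = 0.0579), mutant replicate 2 (0.0581) or mutant replicate 3 (0.0609), at changes of -0.75, -0.73 and -0.71. The fall in the cochlea was larger by 0.85 (SE 0.24), but that difference did not pass (limma adjusted p = 0.0739), except with the replicate block (limma adjusted p = 0.00524) or without mutant cochlear replicate 2 (limma adjusted p = 0.00258, difference -1.10). Hair cell markers were lower beside Scn3b in mutant cochleae but not in mutant vestibules, by the sums given above, and their part in its fall was not tested.

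Scn3b made up most of the β subunit transcripts in every group. Its share of the summed level per kb was 74.8 ± 2.43% in mutant cochleae and 87.7 ± 1.23% in heterozygous cochleae, and 80.2 ± 1.28% in mutant vestibules and 84.0 ± 0.820% in heterozygous vestibules (SD, n = 3 each). The summed level of the β genes was 5.91 to 9.65 CPM per kb in mutant cochleae, against 17.9 to 19.6 CPM per kb in heterozygous cochleae. In the vestibule it was 17.6 to 19.3 CPM per kb in mutants and 28.5 to 30.8 CPM per kb in heterozygotes, so neither organ had overlapping groups. Scn2b did not pass in either organ, and Scn4b was below the filter in both.

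**Figure D4:**
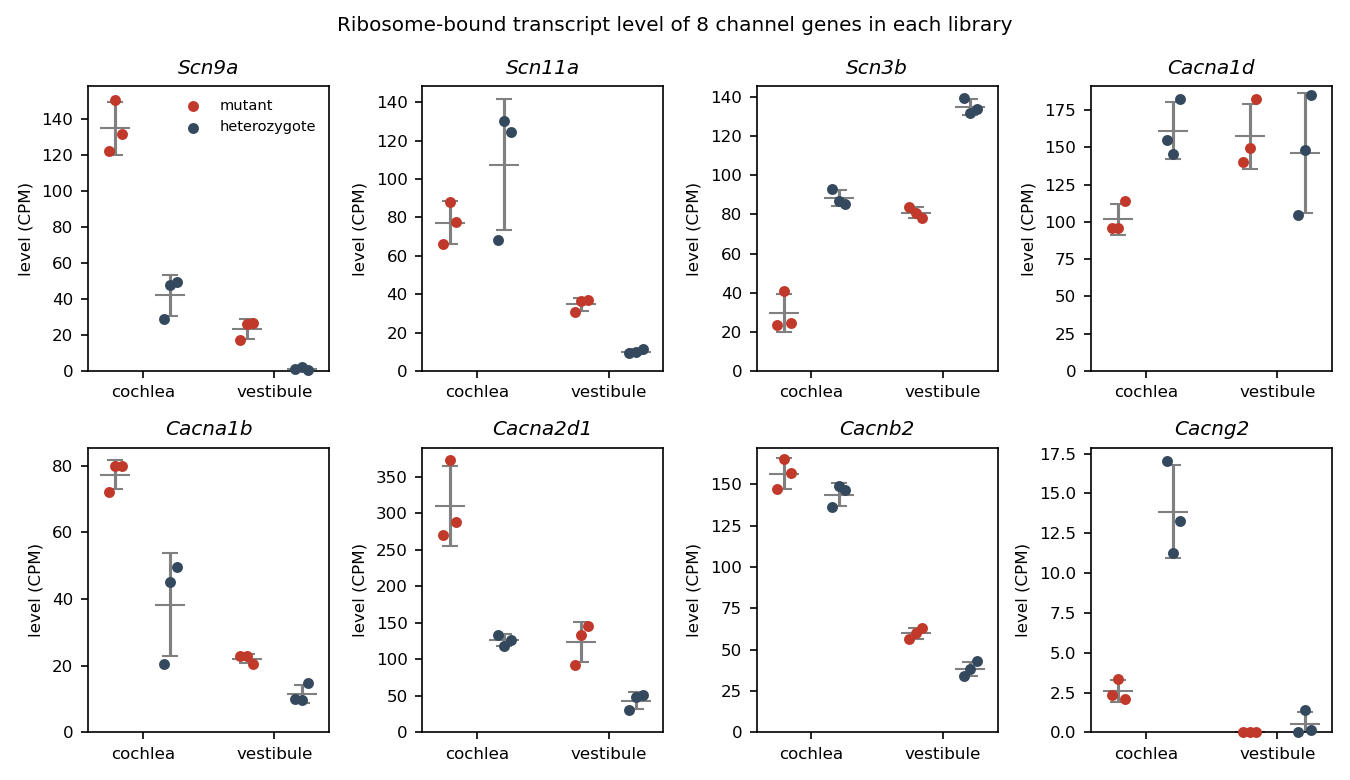
CPM of 8 channel genes in each library (points), with mutants in red left of heterozygotes in blue, in the cochlea and the vestibule; grey bars give the mean and SD of 3 libraries, and each panel has its own linear axis from 0. Scn9a and Cacna2d1 stand higher in all mutant libraries of both organs and Scn3b lower, while Scn11a overlaps between genotypes in the cochlea and not in the vestibule.

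Among the calcium channel α1 genes, Cacna1d fell and Cacna1b rose in the cochlea. Cacna1d, the channel of hair cell transmitter release, lies on chromosome 14 (ENSMUSG00000015968, 30039939 to 30491455, minus strand), and 4.67% of its exon bases overlap Chdh on the opposite strand. In the cochlea it had 95.7, 95.9 and 114 CPM in mutants, against 155, 146 and 183 CPM in heterozygotes. All mutants lay below all heterozygotes, with the highest library of each genotype being replicate 3. The mean was 102 ± 10.4 CPM in mutants and 161 ± 19.3 CPM in heterozygotes (SD, n = 3 each), and the log2 change was -0.66 (SE 0.13, limma adjusted p = 0.00942). The call was lost without mutant replicate 1 (limma adjusted p = 0.0583), without mutant replicate 2 (0.0519) and in limma without its mean-variance trend (0.0869), at changes of -0.61, -0.62 and -0.66. Hair cell markers fell with it in this organ: Otof, the calcium sensor of hair cell exocytosis, had 341 ± 72.3 CPM in mutants and 624 ± 60.3 CPM in heterozygotes (SD, n = 3 each, log2 change -0.89), and their part in the change of Cacna1d was not tested.

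In the vestibule Cacna1d had 140, 150 and 182 CPM in mutants, against 105, 149 and 185 CPM in heterozygotes. The genotypes overlapped, and in both of them library 1 was the lowest and library 3 the highest. The log2 change was 0.14 (SE 0.21, 95% interval -0.35 to 0.62, limma adjusted p = 0.832). The organ difference of -0.79 (SE 0.26) did not pass (limma adjusted p = 0.146), but it passed with the replicate block (limma adjusted p = 0.000814) and without heterozygous vestibular replicate 3 (-0.98, limma adjusted p = 0.0428).

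Cacna1b encodes CaV2.2, the N-type channel of presynaptic terminals of neurons, and lies on chromosome 2 (ENSMUSG00000004113, 24603887 to 24763152, minus strand). In the cochlea it had 72.2, 80.0 and 79.9 CPM in mutants, against 20.6, 45.0 and 49.6 CPM in heterozygotes. Mutants were alike and all above heterozygotes, among which library 1 was lowest. The mean was 77.4 ± 4.46 CPM in mutants and 38.4 ± 15.6 CPM in heterozygotes (SD, n = 3 each), 2.02-fold, and the log2 change was 1.09 (SE 0.25, limma adjusted p = 0.0230). The call was lost without mutant replicate 1 (limma adjusted p = 0.0633), without mutant replicate 2 (0.105) and in limma without its trend (0.132), at changes of 1.13, 1.06 and 1.09. Without heterozygous replicate 1, the lowest of its group, the change was 0.70 and still passed (limma adjusted p = 0.0206), and across the 6 fits that left out 1 library it lay between 0.70 and 1.31.

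In the vestibule Cacna1b had 22.8, 22.8 and 20.5 CPM in mutants, against 9.999, 9.86 and 14.8 CPM in heterozygotes. The groups did not overlap there either. The log2 change of 0.90 (SE 0.20, 95% interval 0.44 to 1.36) narrowly missed the threshold (limma adjusted p = 0.0531) and was called with the replicate block (limma adjusted p = 0.00143) and by edgeR on recovered reads (adjusted p = 0.0386). The organ difference was 0.19 (SE 0.37, 95% interval -0.59 to 0.97, limma adjusted p = 0.881). The ganglion neuron markers had higher sums in mutants of both organs, as given for Scn9a, and their part in the change of Cacna1b was not tested.

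Cacna1e, the R-type channel CaV2.3, had the highest level per kb of the α1 genes in cochleae of both genotypes and lies on chromosome 1 (ENSMUSG00000004110, 154390731 to 154884501, minus strand). It had 379, 397 and 434 CPM in mutant cochleae, against 313, 409 and 562 CPM in heterozygous cochleae. The mutant values lay inside the heterozygous range, and the log2 change was -0.05 (SE 0.18, 95% interval -0.43 to 0.34, limma adjusted p = 0.980). In the vestibule it had 67.5, 133 and 178 CPM in mutants, against 86.3, 201 and 283 CPM in heterozygotes. Within each number the mutant library was lower than the heterozygous one, but the spread between numbers was wider than that. The log2 change was -0.53 (SE 0.47, limma adjusted p = 0.655), and with the replicate block it passed at the same size (limma adjusted p = 0.00041). Without the block, the change was -1.02 without heterozygous replicate 1, -0.17 without heterozygous replicate 3, -0.14 without mutant replicate 1 and -0.83 without mutant replicate 3, and none of these passed (limma adjusted p from 0.187 to 0.923).

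In the make-up of the α1 genes per kb, Cacna1d was 19.4 ± 1.44% in mutant cochleae and 30.7 ± 5.82% in heterozygous cochleae, and Cacna1b was 18.7 ± 0.799% in mutants and 8.81 ± 2.34% in heterozygotes (SD, n = 3 each). Neither overlapped between genotypes. The summed level did, at 37.3 to 45.0 CPM per kb in mutant cochleae and 32.9 to 54.2 CPM per kb in heterozygous cochleae. In the vestibule Cacna1d had the largest share in both genotypes, 48.2 ± 4.07% in mutants and 41.1 ± 4.27% in heterozygotes, followed by Cacna1e with 18.6 ± 5.16% in mutants and 24.9 ± 5.35% in heterozygotes (SD, n = 3 each). Cacna1g, a T-type channel, made up 11.9 ± 0.614% in mutants and 15.7 ± 0.790% in heterozygotes (SD, n = 3 each).

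The remaining tested α1 genes were not called in either organ without the block. They were the P/Q-type channel Cacna1a, the L-type channel Cacna1c of heart and smooth muscle, and the T-type channels Cacna1g and Cacna1h, with the retinal L-type channel Cacna1f tested in the cochlea alone. Cacna1a had 9.18, 8.66 and 9.87 CPM in mutant vestibules, against 5.67, 4.07 and 7.15 CPM in heterozygous vestibules. Its groups did not overlap, and the log2 change of 0.65 (SE 0.23, limma adjusted p = 0.209) passed with the replicate block (limma adjusted p = 0.0224). Cacna1c and Cacna1g also passed in the vestibule with the block alone, at log2 changes of -0.58 and -0.48 (limma adjusted p = 0.0217 and 0.00875; without the block 0.490 and 0.466). Markers of smooth muscle and pericytes (7 genes) summed to 40.9 to 60.1 CPM in mutant vestibules, against 60.4 to 81.8 CPM in heterozygous vestibules, and to 83.6 to 91.9 CPM in mutant cochleae, against 99.1 to 124 CPM in heterozygous cochleae. These sums did not overlap, and none of the 7 was at 0 in all libraries or called without the block (3 at an unadjusted p under 0.05 in the vestibule and 0 in the cochlea; edgeR called 0 in either). With the block, 1 was called higher and 2 lower in mutant vestibules, beside 10.5% and 12.8% of all genes, and 0 in cochleae. In the cochlea the log2 change of Cacna1c was 0.05 (limma adjusted p = 0.979). The part of these cells in the change of Cacna1c was not tested. The skeletal muscle channel Cacna1s and the T-type channel Cacna1i were below the filter in both organs.

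Among the α2δ genes, Cacna2d1 rose in both organs. It encodes α2δ-1, the subunit that binds gabapentin and raises the number of channels at the membrane of neurons, and lies on chromosome 5 (ENSMUSG00000040118, 15934691 to 16374511, plus strand). In the cochlea it had 271, 373 and 288 CPM in mutants, against 134, 118 and 127 CPM in heterozygotes. The lowest mutant library was above the highest heterozygous one. The mean was 311 ± 54.8 CPM in mutants and 126 ± 8.20 CPM in heterozygotes (SD, n = 3 each), 2.46-fold, and the log2 change was 1.28 (SE 0.14, limma adjusted p = 8.27e-05).

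In the vestibule Cacna2d1 had 92.5, 134 and 146 CPM in mutants, against 30.0, 48.9 and 51.2 CPM in heterozygotes. The groups did not overlap, and library 1 was the lowest of each genotype. The mean was 124 ± 27.8 CPM in mutants and 43.4 ± 11.6 CPM in heterozygotes (SD, n = 3 each), 2.86-fold, and the log2 change was 1.504 (SE 0.24, limma adjusted p = 0.0139). This call was lost without mutant replicate 2 (change 1.44, limma adjusted p = 0.0751) or mutant replicate 3 (1.38, 0.0638). The organ difference was -0.22 (SE 0.29, 95% interval -0.85 to 0.40, limma adjusted p = 0.807). Ganglion neuron markers had higher sums beside it in mutants of both organs, and their part was not tested.

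Cacna2d2 encodes α2δ-2, the partner of CaV1.3 in inner hair cells, and lies on chromosome 9 (ENSMUSG00000010066, 107399612 to 107529343, plus strand). It had 45.0, 57.9 and 59.6 CPM in mutant cochleae, against 41.0, 39.6 and 53.7 CPM in heterozygous cochleae. In the vestibule it had 32.0, 22.7 and 30.0 CPM in mutants, against 28.4, 31.6 and 39.1 CPM in heterozygotes. Both organs had overlapping groups, with a log2 change of 0.27 in the cochlea (SE 0.16, 95% interval -0.08 to 0.63, limma adjusted p = 0.605) and of -0.22 in the vestibule (SE 0.19, 95% interval -0.66 to 0.21, limma adjusted p = 0.647).

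With Cacna2d1 higher, the make-up of the α2δ genes differed. Per kb, Cacna2d1 made up 72.6 ± 3.39% in mutant cochleae and 57.0 ± 3.30% in heterozygous cochleae, and 58.9 ± 6.39% in mutant vestibules and 33.1 ± 3.97% in heterozygous vestibules (SD, n = 3 each). Cacna2d2 made up 21.5 ± 5.75% in mutant vestibules and 40.0 ± 3.10% in heterozygous vestibules (SD, n = 3 each), where it had the largest share per kb, though not the highest CPM. The summed level was 30.6 to 39.3 CPM per kb in mutant cochleae, against 16.8 to 18.9 CPM per kb in heterozygous cochleae, and 14.5 to 18.7 CPM per kb in mutant vestibules, against 8.47 to 11.9 CPM per kb in heterozygous vestibules. Cacna2d3 and Cacna2d4, the last known from photoreceptor synapses, did not pass in either organ.

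Among the calcium channel β genes, which encode cytoplasmic partners of the α1 subunit, Cacnb2 was called in the vestibule. It encodes β2, the main β subunit of inner hair cells, and lies on chromosome 2 (ENSMUSG00000057914, 14603088 to 14987908, plus strand), with 7.32% of its exon bases overlapped by genes on the opposite strand. In the vestibule it had 56.4, 60.2 and 63.0 CPM in mutants, against 34.4, 38.1 and 43.0 CPM in heterozygotes. Every mutant library was higher than every heterozygous one. The mean was 59.9 ± 3.30 CPM in mutants and 38.5 ± 4.29 CPM in heterozygotes (SD, n = 3 each), 1.56-fold, and the log2 change was 0.63 (SE 0.14, limma adjusted p = 0.0496). This p lay at the threshold, and leaving out any 1 of the 6 vestibular libraries ended the call, with changes of 0.55 to 0.71 and limma adjusted p from 0.0725 to 0.199.

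In the cochlea Cacnb2 had 147, 166 and 157 CPM in mutants, against 136, 149 and 147 CPM in heterozygotes. The lowest mutant library lay below the highest heterozygous one, and the log2 change was 0.12 (SE 0.12, 95% interval -0.13 to 0.37, limma adjusted p = 0.830). The organ difference of -0.51 (SE 0.17, limma adjusted p = 0.160) passed with the replicate block alone (limma adjusted p = 0.0107). Cacnb3, a β subunit of neurons, had 31.1, 31.6 and 43.8 CPM in mutant cochleae, against 19.8, 26.0 and 31.6 CPM in heterozygous cochleae. Its groups overlapped there, with mutant library 1 (31.1 CPM) below heterozygous library 3 (31.6 CPM). Cacnb3 passed with the block alone in the cochlea (log2 change 0.45, limma adjusted p = 0.0383; 0.358 without) and in the vestibule (0.40, limma adjusted p = 0.0440; 0.482 without). Per kb, Cacnb2 had the largest share of the β genes in the cochlea, 47.1 ± 5.03% in mutants and 50.1 ± 5.14% in heterozygotes, and Cacnb3 in the vestibule, 68.4 ± 7.22% in mutants and 66.4 ± 3.64% in heterozygotes (SD, n = 3 each).

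Among the γ genes, Cacng2 fell in the cochlea. It encodes stargazin, better known as a partner of AMPA-type glutamate receptors than of calcium channels, and lies on chromosome 15 (ENSMUSG00000019146, 77991748 to 78120028, minus strand), with 5.86% of its exon bases overlapping A730060N03Rik on the opposite strand. It had 2.37, 3.36 and 2.08 CPM in mutant cochleae, against 17.0, 11.3 and 13.2 CPM in heterozygous cochleae. The mutant values rested on 19, 26 and 18 reads and the heterozygous values on 134, 85 and 124 reads, and the groups did not overlap. The mean was 2.60 ± 0.666 CPM in mutants and 13.9 ± 2.92 CPM in heterozygotes (SD, n = 3 each), 5.32 times lower, and the log2 change was -2.04 (SE 0.25, 95% interval -2.58 to -1.50, limma adjusted p = 0.00021).

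In the vestibule Cacng2 had 0 reads in each mutant library, where a count of 0 allows up to 0.158, 0.127 and 0.123 CPM, and 0, 1.43 and 0.170 CPM in heterozygous libraries, from 0, 34 and 5 reads. It did not reach the filter there, and a single heterozygous library held most of its reads. Cacng4 and Cacng5, which also act on AMPA receptors, did not pass in either organ, and Cacng1, the γ subunit of skeletal muscle, and Cacng3 were below the filter in both. Skeletal muscle markers were low throughout, with a summed level of 9 genes of 3.999 to 6.45 CPM in mutant cochleae, against 9.15 to 13.1 CPM in heterozygous cochleae. In the cochlea 1 gene, Actn3, was tested and fell, beside 2.52% of all genes called lower. In the vestibule the 9 genes summed to 9.54 to 15.6 CPM in mutants and 12.3 to 16.5 CPM in heterozygotes, which overlapped, and 0 of the 3 tested were called. None of the 9 was at 0 in all libraries, and the part of muscle in the channel gene changes was not tested.

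The 25 channel genes tested and not called in the cochlea had log2 changes of -0.59 to 0.57 (limma adjusted p 0.358 to 0.996), and the 24 in the vestibule had -0.58 to 0.90 (0.0531 to 0.999). Their 95% intervals spanned -1.24 to 1.21 among cochlear genes and -1.61 to 1.74 among vestibular genes, so changes of moderate size were not detectable in all of them. Genotypes did not overlap for 3 genes higher and 4 lower in mutant cochleae, beside 17.5% of all genes without overlap, and for 8 higher and 2 lower in mutant vestibules, beside 22.3%. Of the 6 genes called in the cochlea and the 5 in the vestibule, 3 were shared (50% of the cochlear and 60% of the vestibular calls), each in 1 direction in both organs. Over the 29 genes tested in both, 17 had changes of the same sign, and the changes had a Pearson correlation of 0.61 across genes, which are not independent replicates. The shared calls, signs and correlation were not set beside those of all genes, so they show nothing particular to channel genes. Genes below the filter were 6 in the cochlea, none above 1.16 CPM in mutants or 1.02 CPM in heterozygotes, and 8 in the vestibule, none above 0.637 CPM in mutants or 1.43 CPM in heterozygotes.

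A list of 46 genes whose proteins bind, place or regulate these channels was set beside them. In the cochlea 37 were tested, 1 rose and 2 fell, beside 4.41% of all genes called, with a median log2 change of 0.03. Ryr3, a calcium release channel of the endoplasmic reticulum, had 23.9 ± 4.54 CPM in mutants and 11.1 ± 4.93 CPM in heterozygotes (SD, n = 3 each, log2 change 1.13, limma adjusted p = 0.0433). Unc80, a subunit of the sodium leak channel complex, had 48.0 ± 3.31 CPM in mutants and 89.4 ± 7.78 CPM in heterozygotes (SD, n = 3 each, log2 change -0.88, limma adjusted p = 0.0009995). Cachd1, which encodes a protein resembling α2δ subunits, had 82.8 ± 3.87 CPM in mutants and 143 ± 16.7 CPM in heterozygotes (SD, n = 3 each, log2 change -0.77, limma adjusted p = 0.00242).

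In the vestibule 38 of the 46 were tested, 3 rose and 1 fell, beside 3.5% of all genes called, with a median log2 change of -0.04. Ank3, which encodes the ankyrin that anchors sodium channels at the axon initial segment, had 200 ± 23.2 CPM in mutants and 107 ± 14.4 CPM in heterozygotes (SD, n = 3 each, log2 change 0.90, limma adjusted p = 0.0136). Nedd4l, a ubiquitin ligase that removes sodium channels from the membrane, had 138 ± 18.8 CPM in mutants and 74.6 ± 3.41 CPM in heterozygotes (SD, n = 3 each, log2 change 0.88, limma adjusted p = 0.0106). Bsn, the active zone scaffold Bassoon that helps to hold calcium channels at the ribbon, had 40.9 ± 1.90 CPM in mutants and 22.0 ± 2.27 CPM in heterozygotes (SD, n = 3 each, log2 change 0.87, limma adjusted p = 0.0160). Stac, which encodes an adaptor of L-type channels, had 4.27 ± 0.577 CPM in mutants and 11.7 ± 0.737 CPM in heterozygotes (SD, n = 3 each, log2 change -1.28, limma adjusted p = 0.0109). None of these 7 genes was called in both organs. With the replicate block 6 of the list rose and 6 fell in the cochlea, beside 8.52% of all genes called, and 10 rose and 6 fell in the vestibule, beside 23.3%. By edgeR 2 of the list were called in the cochlea, beside 4.52% of all genes, and 5 in the vestibule, beside 3.36%.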

How the data were processed

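Per the file headers, the authors deposited CPM (reads of a gene scaled to a common library total) in 1 table for each of 12 libraries. TopHat and GRCm38 come from the submitters' processing notes; versions, counting tool, strand and annotation are not given in the sources used here. Antisense genes may therefore share reads. Every deposited CPM was a whole multiple of 1 read to within 1e-06, so reads were recovered. Stated floors cover counting error only.

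In each organ limma 3.58.1 (R 4.3.3, with trend) compared genotypes on log2(CPM + 1), and an interaction term compared organs; all genes with 1 CPM in 3 of 6 libraries were fitted. The steps were tested on simulated counts without a replicate effect, so that test does not cover the replicate spread of these libraries. Replicate numbers were taken to pair the libraries, and the blocked fit was an alternative. Same-numbered deviations from group means correlated at 0.226, 0.226 and 0.420 (cochlea) and 0.766, 0.508 and 0.599 (vestibule), all over 0.1. In the vestibule mutant 3 with heterozygote 2 (0.318) and mutant 2 with heterozygote 3 (0.220) were also over 0.1. Other differently numbered libraries correlated at -0.640 to -0.477 there, and at -0.240 to 0.0127 in the cochlea. Others were a pseudocount of 0.25 or 4, no filter or 5 CPM, median-of-ratios scaling, no trend, left-out libraries and, added later, edgeR 4.0.16. GENCODE on GRCm38 gave exon lengths and coordinates for 37 of 37 genes.

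Genes were described in full if called, among the 3 of highest CPM in an organ, or Cacna1d, Cacnb2 or Cacna2d2; of the partner list, called genes were named. Others given values were chosen after these were seen. Channel genes and lists were chosen with earlier results of these data known. Some genes are not reported here by name. Figures were drawn with matplotlib 3.10.9.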

Additional observations from a re-analysis of the deposited data

Results flagged for a closer look

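The change in mutants differed between organs for Scn11a and for Scn9a, by the test of the difference itself. For Scn11a the cochlear change minus the vestibular change was -2.11 on the log2 scale (limma adjusted p = 0.000884), with all 3 vestibular mutant libraries above all heterozygous ones and overlapping genotypes in the cochlea. For Scn9a it was -1.86 (limma adjusted p = 0.0110), with all mutant libraries above all heterozygous ones in both organs. The Scn9a difference did not pass with a pseudocount of 4 or without both cochlear replicate 3 libraries. Its heterozygous vestibular values rested on 19, 46 and 16 reads. Organ and library kit cannot be told apart in either difference.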

How the results depend on the processing

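Of 483 recomputed values for 28 changes of the genes described in full, 441 kept their direction and side of the threshold, 22 no longer passed, 14 newly passed and 6 reversed. The reversals were of changes that never passed. Leaving out 1 library moved Cacna1e in the cochlea over -0.25 to 0.17 (positive without heterozygous replicate 3), Cacna1d in the vestibule over -0.0841 to 0.33 (negative without heterozygous replicate 1), the organ difference of Cacna1b over -0.20 to 0.42 (negative without heterozygous cochlear replicate 1) and that of Cacna2d1 over -0.42 to 0.0148 (positive without heterozygous vestibular replicate 1). Cacna1e was 0.12 without both cochlear replicate 3 libraries and Cacna1d -0.0052 without both vestibular replicate 1 libraries. The cause was not tested. Leaving out 1 library gave 4 to 7 called channel genes in the cochlea, beside 3.04% to 4.45% of all genes, and 2 to 3 for the organ difference, beside 2.06% to 3.09%. The vestibular count was 2 to 5, beside 1.45% to 3.35% of all genes: 3 without heterozygous replicate 2 (1.45%), 2 without mutant replicate 2 (1.63%) and 2 without mutant replicate 3 (1.62%). The organ difference held for 1 gene, Scn11a, with a pseudocount of 4 (3.24% of all genes) and without both cochlear replicate 3 libraries (1.91%). The replicate block gave 13 called channel genes in the vestibule and 7 for the organ difference, with 1532 genes of the whole table called in the cochlea (794 without it), 3634 in the vestibule (546) and 1955 for the organ difference (461). Apart from the calls named with it, the block changed no other call of these genes. With edgeR on recovered reads, Cacna1b was added in the vestibule and no channel gene was lost. Genes with few reads, such as Scn4a and the 6 and 8 genes below the filter, are limited by depth.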
